A study of Mus musculus with 10 samples.

Results

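The genes described here are 9 transcriptional targets of BMP-SMAD signaling (*Id1*, *Id2*, *Id3*, *Id4*, *Smad6*, *Smad7*, *Smad9*, *Bambi* and *Atoh8*), chosen by name as known targets, though with earlier results of these data known, out of 27267 genes in a table of interscapular brown adipose tissue (iBAT). Total RNA came from iBAT of 5 wild-type (WT) mice and 5 global *Mgp* knockout (*Mgp*-KO) mice on C57BL/6, labelled as males of 4 weeks and kept on chow without further treatment. The *Mgp*-KO mice descend from the B6.129S7-Mgptm1Kry/KbosJ line, which carries a germline null allele, so the deletion is meant to cover every cell type and not only fat. *Mgp*-KO 4 and 5 held *Mgp* reads all the same, as given below. Each library comes from whole dissected tissue, in which fewer cells of a type and less RNA per cell cannot be told apart.

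Bone morphogenetic proteins (BMPs) bind serine/threonine kinase receptors, which phosphorylate SMAD1, SMAD5 and SMAD9, and these enter the nucleus with SMAD4. Among the genes they switch on most directly are the *Id* genes and a group of inhibitors that feed back on the pathway. BMPs take part in the commitment and differentiation of brown adipocytes, endothelial cells respond strongly to them, and matrix Gla protein (MGP) is an extracellular protein that binds BMPs and limits their signaling. The comparison therefore asks how these targets stand in tissue labelled *Mgp*-KO.

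The reads behind each deposited value could be recovered, and 19616366 to 22252260 reads were counted on genes in replicates 1 to 3 against 9253793 to 13281873 in replicates 4 and 5. Mitochondrial ribosomal RNA took 0.771% to 1.72% of reads in the first set and 6.50% to 16.7% in the second. *Mgp* itself was at 466 to 1146 normalized counts in WT, at 0 to 0.821 in *Mgp*-KO 1 to 3, and at 500 and 331 in *Mgp*-KO 4 and 5, whose reads go against their label. WT 2 had 5094 normalized counts of *Xist* and 3.74 over Y chromosome genes, which goes against its male label. All labels were kept, "*Mgp*-KO" below means the libraries labelled so, and the fold change of each target is given over all libraries and within each set. Brown adipocyte markers were present throughout, with *Ucp1* at 38421 to 116019 normalized counts in WT and 2201 to 15641 in *Mgp*-KO.

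In WT, per kilobase of exon, the order of the mean levels ran from *Id1* (1299 normalized counts per kb ± 321, SD, n = 5) through *Id3* (493 ± 140), *Id2* (280 ± 32.9), *Atoh8* (67.3 ± 42.7), *Smad6* (62.6 ± 29.3), *Smad7* (35.6 ± 15.0), *Id4* (9.83 ± 1.83) and *Bambi* (7.61 ± 0.873) to *Smad9* (2.55 ± 1.88). The mean levels in *Mgp*-KO fell in the same order. Neighbours in this order were mostly separated, *Id1* lying above *Id3* in 10 of 10 libraries and *Id2* above *Atoh8* in 10 of 10. *Atoh8* and *Smad6* were not, since *Atoh8* was the higher of them in only 1 of 5 WT libraries and in 6 of 10 in all. The reads behind these levels, summed over the 10 libraries, ranged from 16446 for *Id1* to 751 for *Id4*, 547 for *Bambi* and 232 for *Smad9*.

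With limma on log2(normalized count + 1), 7 of the 9 targets had a higher mean in *Mgp*-KO and none passed an adjusted p of 0.05, where 1 of 13714 tested genes (0.00729%) was called higher and 8 were called lower. At an unadjusted p under 0.05 there were 2 targets, *Id4* and *Bambi*, beside 10.4% of all tested genes. edgeR on the recovered reads called none of the 9, and DESeq2 called *Id4*, where it called 0.997% of its 16549 tested genes higher. The median log2 fold change of the 9 targets was 0.50 over all libraries, 0.21 in replicates 1 to 3 and 0.68 in replicates 4 and 5, beside medians of 0.03, 0.02 and 0.02 over all tested genes. *Id4* and *Bambi* were higher in every *Mgp*-KO library than in every WT library, as were 1.39% of tested genes, and none of the 9 was lower in every library, against 2.11% of tested genes.

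**Figure D1:**
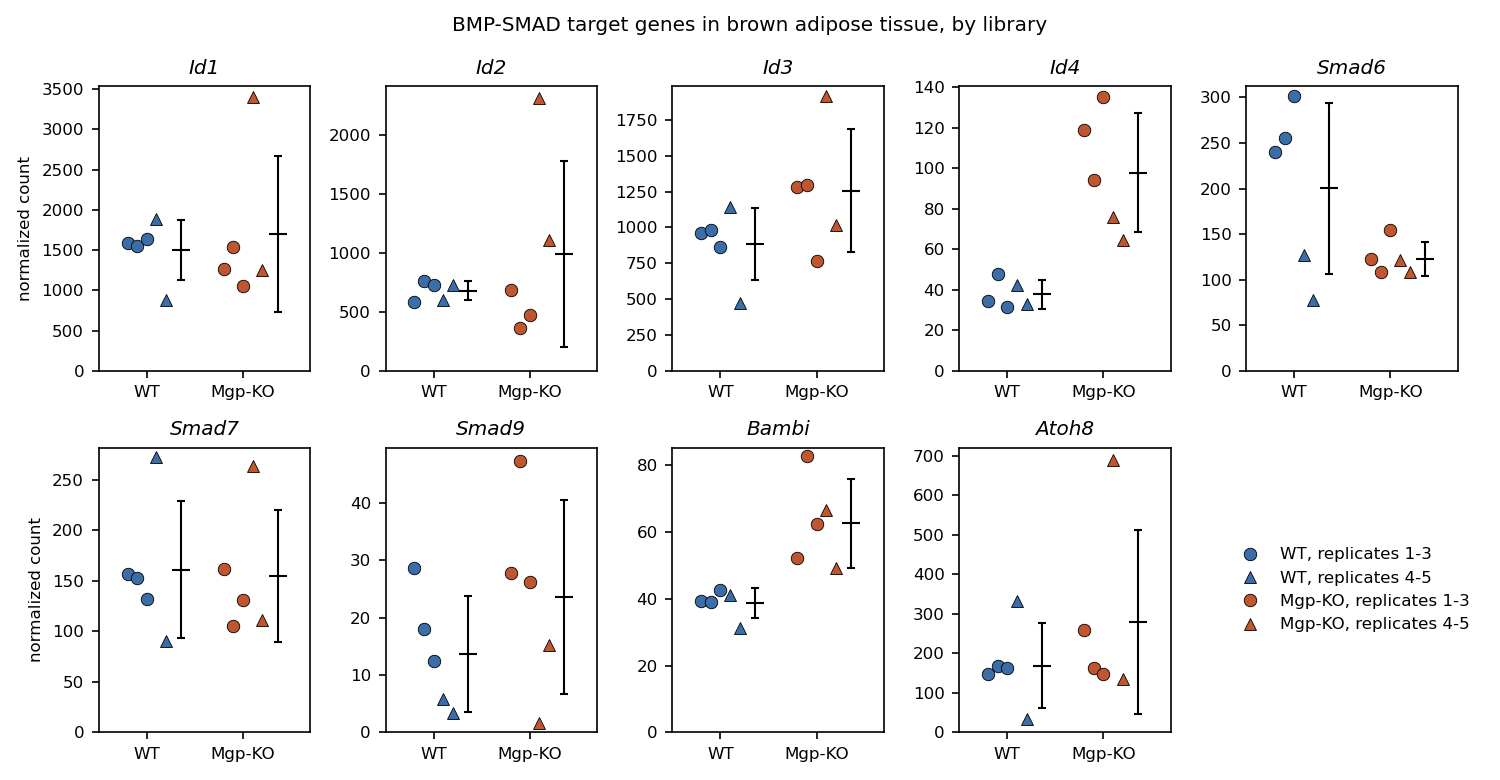
Normalized counts (y axis, from 0) of the 9 BMP-SMAD target genes in each library, WT on the left and *Mgp*-KO on the right of each panel, with circles for replicates 1 to 3, triangles for replicates 4 and 5, and bars for the mean ± SD (n = 5). *Id4* and *Bambi* separate the groups in all 10 libraries, *Smad6* separates them among the circles only, and *Mgp*-KO 4 is the highest triangle for *Id1*, *Id2*, *Id3* and *Atoh8*.

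The ID proteins are helix-loop-helix factors without a DNA-binding region that capture E proteins and so hold back differentiation. *Id4*, the least abundant of them here, was the target with the smallest p-value. It lies on chromosome 13 at 48261228 to 48266026 on the plus strand of GRCm38. Its exons overlap 2 genes of the minus strand, *A330033J07Rik* by 63 bases and *Gm49291* by 108 bases. How reads on these bases were counted depends on the strand setting, which was not stated. *Id4* was at 34.3, 47.9, 31.6, 42.5 and 32.9 normalized counts in WT 1 to 5. In *Mgp*-KO 1 to 5 it was at 119, 94.1, 135, 76.1 and 64.5. Every *Mgp*-KO library was above every WT library, and replicates 1 to 3 were the highest of the *Mgp*-KO libraries.

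The means of *Id4* were 37.9 ± 7.05 in WT and 97.8 ± 29.4 in *Mgp*-KO (SD, n = 5 each), and its log2 fold change was 1.31 ± 0.26 (SE) with an adjusted p of 0.0647 by limma, the rank of its p-value being 57 of 13714. With a term for the sets of replicates *Id4* rose with an adjusted p of 0.0162, where 0.824% of tested genes were called higher. Within replicates 1 to 3 it also rose, with a log2 fold change of 1.60 ± 0.23 and an adjusted p of 0.0192, where 1.9% of genes were called higher. Without WT 2 the adjusted p was 0.0493 with the set term and 0.0700 within replicates 1 to 3. Within replicates 4 and 5 the log2 fold change was 0.89, with a 95% confidence interval of -0.26 to 2.03.

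The promoter of *Id4* is shown because it is the target that differed most and because it carries the GC-rich letters GGCGCC, to which SMAD1 and SMAD5 are known to bind. The RefSeq sequence covers chr13:48260866-48261125 (GRCm38.p6, plus strand), from 250 bases before to 10 bases after the RefSeq start, and the match from -148 to -143 is in capitals.
Id4: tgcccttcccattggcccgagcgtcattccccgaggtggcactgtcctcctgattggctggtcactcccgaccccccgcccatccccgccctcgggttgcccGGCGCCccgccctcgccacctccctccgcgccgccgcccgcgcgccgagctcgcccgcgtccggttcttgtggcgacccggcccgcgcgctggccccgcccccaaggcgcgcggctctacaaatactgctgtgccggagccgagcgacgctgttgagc
The same letters, which read alike on both strands, were found in the 300-base promoters of *Id2* (-231 to -226) and *Smad9* (-51 to -46) and in 3898 of 32851 promoters of that length (11.9%). They were not found in those of *Id3*, *Smad6* and *Atoh8*, and 6 of the 9 targets had a promoter in the table used here. A match describes the letters of the sequence only.

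*Id1*, the most abundant target and a gene widely read as a marker of BMP activity, lies on chromosome 2 at 152736251 to 152737410 on the plus strand. It was at 1582, 1546, 1638, 1883 and 883 normalized counts in WT 1 to 5 and at 1259, 1543, 1058, 3404 and 1250 in *Mgp*-KO 1 to 5. In replicates 1 to 3 all *Mgp*-KO libraries were below all WT libraries, as were 15.1% of tested genes, while *Mgp*-KO 4 was the highest library of all. Its log2 fold change was 0.08 ± 0.32 over all libraries with an adjusted p of 0.961, -0.32 within replicates 1 to 3 with an adjusted p of 0.264, and 0.68 within replicates 4 and 5 with an adjusted p of 0.723. The 95% confidence interval over all libraries ran from -0.62 to 0.78, so a moderate change in either direction is within the error.

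*Id2*, which is active in adipocyte precursors and in lymphoid cells, lies on chromosome 12 at 25093799 to 25097140 on the minus strand. WT 1 to 5 had 589, 764, 727, 604 and 729 normalized counts and *Mgp*-KO 1 to 5 had 690, 367, 474, 2313 and 1111. The WT libraries were close together, while the *Mgp*-KO libraries spread from the lowest to the highest value of the series. *Mgp*-KO was higher without overlap in replicates 4 and 5, as were 20.3% of tested genes, and *Id2*, *Id4* and *Bambi* were the targets with that pattern. The log2 fold change was -0.48 in the first set and 1.27 in the second. These effects differed by 1.75 ± 0.47 with an unadjusted p of 0.00385 and an adjusted p of 0.455 in the limma interaction test.

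*Id3*, which is often expressed together with *Id1* in vessels, lies on chromosome 4 at 136143497 to 136145755 on the plus strand. It was at 961, 979, 862, 1140 and 471 normalized counts in WT 1 to 5 and at 1280, 1297, 764, 1913 and 1019 in *Mgp*-KO 1 to 5. The groups overlapped, with WT 5 the lowest and *Mgp*-KO 4 the highest of the 10. The log2 fold change was 0.50 ± 0.29 with an adjusted p of 0.586, and it was above 0 in both sets (0.21 and 0.93). It was 0.29 without WT 5 and 0.33 without *Mgp*-KO 4.

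SMAD6 and SMAD7 are inhibitory SMADs, SMAD6 acting mainly on BMP receptors and SMAD1, and SMAD7 on BMP and TGF-β receptors alike. *Smad6* fell within replicates 1 to 3. It lies on chromosome 9 at 63953076 to 64022059 on the minus strand. It was at 240, 256 and 301 normalized counts in WT 1 to 3 against 123, 109 and 154 in *Mgp*-KO 1 to 3. These *Mgp*-KO values were lower without overlap, as were those of 15.1% of tested genes. In WT 4 and 5 *Smad6* was at 128 and 77.9, against 121 and 109 in *Mgp*-KO 4 and 5. The *Mgp*-KO libraries were thus alike in both sets, while the WT libraries were lower in the second set than in the first.

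Within replicates 1 to 3 the mean of *Smad6* was 266 ± 32.0 in WT and 129 ± 23.4 in *Mgp*-KO (SD, n = 3 each), a ratio of 0.484. It fell by 1.05 on the log2 scale with an SE of 0.18 and an adjusted p of 0.0296 by limma, where 1.65% of genes were called lower. edgeR and DESeq2 called it in these libraries too, with adjusted p of 0.0304 and 8.05e-05, and without WT 2 the log2 fold change was -1.07 and the adjusted p 0.137. Over all libraries the log2 fold change was -0.55 ± 0.34 with an adjusted p of 0.616, and in replicates 4 and 5 it was 0.20. With a library left out in turn it ran from -0.85 without WT 5 to -0.36 without WT 3. The effects in the 2 sets differed by 1.25 ± 0.37 with an unadjusted p of 0.00636 and an adjusted p of 0.455, so a difference between the sets did not pass the test. In that interaction test 10.3% of all tested genes had an unadjusted p under 0.05, and 2 of the 9 targets did (*Id2* and *Smad6*).

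The promoter of *Smad6* is shown because it holds the palindromic SMAD-binding letters GTCTAGAC across the start of transcription. The RefSeq sequence covers chr9:64022050-64022309 (GRCm38.p6, minus strand, printed 5′ to 3′ on that strand), from 250 bases before to 10 bases after the start, and the match from -4 to 4 is in capitals.
Smad6: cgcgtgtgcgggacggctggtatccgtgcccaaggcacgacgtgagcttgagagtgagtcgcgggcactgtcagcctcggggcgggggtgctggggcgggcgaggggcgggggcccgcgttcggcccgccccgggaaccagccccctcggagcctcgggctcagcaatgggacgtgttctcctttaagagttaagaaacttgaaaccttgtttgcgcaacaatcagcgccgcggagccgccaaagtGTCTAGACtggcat
These letters also read alike on both strands, and 70 of 32851 promoters of 300 bases (0.213%) hold them, *Smad6* being the only one of the 6 targets with a promoter in the table. GGCGCC was not found in this window. A match shows the letters only, not a bound site.

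*Smad7* showed no separation of the groups. It was at 157, 153, 132, 273 and 90.0 normalized counts in WT 1 to 5 and at 162, 106, 131, 264 and 111 in *Mgp*-KO 1 to 5. Both groups had their highest value in replicate 4, and the ranges nearly coincided. The log2 fold change was -0.05 ± 0.32 with an adjusted p of 0.973 and a 95% confidence interval of -0.75 to 0.66, and it was -0.17 and 0.13 in the 2 sets.

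**Figure D2:**
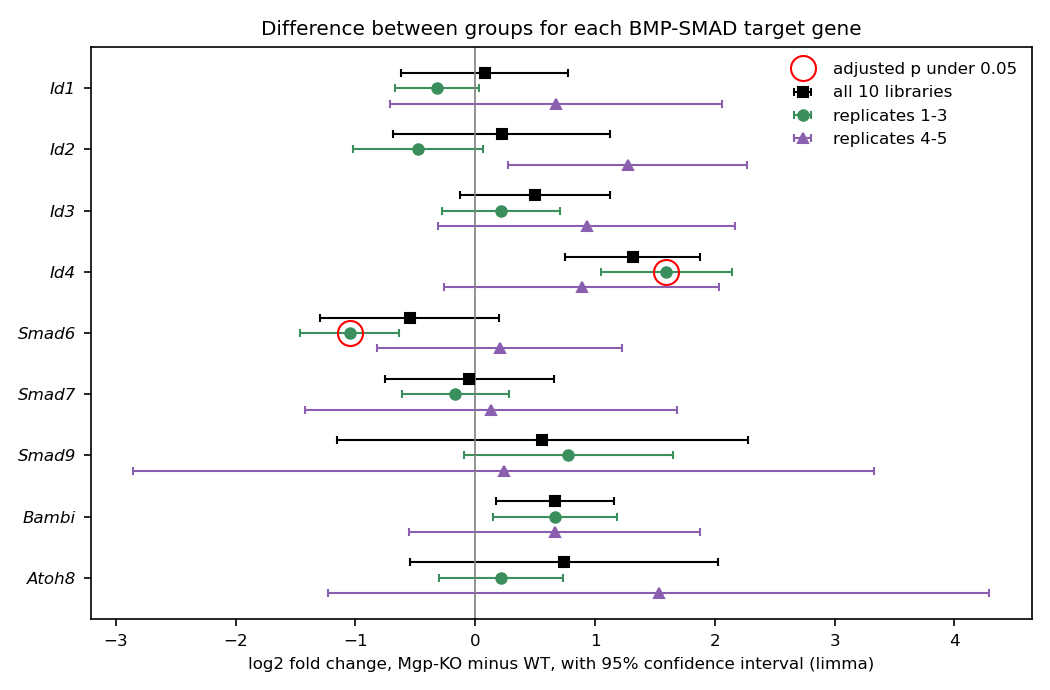
Log2 fold changes, *Mgp*-KO minus WT, of the 9 target genes on log2(normalized count + 1), with 95% confidence intervals from limma over all 10 libraries (squares), replicates 1 to 3 (circles) and replicates 4 and 5 (triangles), and a ring around values with an adjusted p under 0.05. The rings mark *Id4* (1.60) and *Smad6* (-1.05) in replicates 1 to 3, and the intervals of replicates 4 and 5, with 2 libraries a group, are the widest for all 9 genes.

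*Bambi* encodes a pseudoreceptor for the TGF-β family that lacks the kinase domain and blocks receptor complexes. Its values were 39.3, 38.9, 42.6, 41.0 and 31.1 normalized counts in WT 1 to 5 and 52.0, 82.6, 62.4, 66.4 and 49.2 in *Mgp*-KO 1 to 5. Every *Mgp*-KO library was above every WT library, and the difference was alike in both sets. The means were 38.6 ± 4.43 and 62.5 ± 13.3 (SD, n = 5 each), with a log2 fold change of 0.66 ± 0.23, an unadjusted p of 0.0124 and an adjusted p of 0.301 by limma. With the set term the adjusted p was 0.109, and over the alternatives it ranged from 0.0546 to 0.704, so *Bambi* passed the threshold under none of them. The log2 fold change was 0.67 in replicates 1 to 3 and 0.66 in replicates 4 and 5. In replicates 1 to 3, *Id4* and *Bambi* were the 2 targets higher without overlap, as were 15.5% of tested genes, and *Id1* and *Smad6* the 2 that were lower, as were 15.1%.

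*Smad9*, which encodes the least abundant of the BMP receptor SMADs here, lies on chromosome 3 at 54755582 to 54801257 on the plus strand and was near the limit of detection in the second set. It was at 28.6, 18.0, 12.5, 5.86 and 3.46 normalized counts in WT 1 to 5 and at 27.9, 47.4, 26.3, 1.62 and 15.2 in *Mgp*-KO 1 to 5. The value of *Mgp*-KO 4 is 1 read and that of WT 5 is 2 reads, both under a floor of 3 reads. Replicates 4 and 5 were lower than replicates 1 to 3 of their group in both WT and *Mgp*-KO. The log2 fold change was 0.56 ± 0.79 with an adjusted p of 0.849 and a 95% confidence interval of -1.15 to 2.28. It was 0.78 ± 0.37 in replicates 1 to 3 (adjusted p = 0.275) and 0.24 ± 1.29 in replicates 4 and 5. With a library left out in turn it ran from 0.19 without *Mgp*-KO 2 to 1.25 without *Mgp*-KO 4, and it was 0.21 without WT 5.

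*Atoh8*, a bHLH factor of endothelial and other cells that follows BMP9 signals, lies on chromosome 6 at 72206177 to 72235577 on the minus strand. It was at 148, 168, 162, 333 and 32.9 normalized counts in WT 1 to 5 and at 259, 164, 149, 688 and 136 in *Mgp*-KO 1 to 5. Replicate 4 was the highest and replicate 5 the lowest library of each group. The highest library was 20.9 times the lowest, against 2.65 for *Bambi*, 6.30 for *Id2* and at least 9.77 for *Smad9*, whose lowest library was set to the floor of 3 reads. The log2 fold change was 0.74 ± 0.59 with an adjusted p of 0.707, with values of 0.21 and 1.53 in the 2 sets. It was 0.24 without WT 5 and 0.34 without *Mgp*-KO 4.

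The targets did not vary as 1 block. With the mean of each set of replicates subtracted from the log2 values, *Atoh8* went with *Id3* (Pearson r = 0.92 over 10 libraries), *Smad7* (0.88) and *Id1* (0.87), and *Id1* went with *Id3* (0.84). *Id4* went with *Bambi* (0.78) and against *Smad6* (-0.64). Among the 6 libraries of replicates 1 to 3 the values with *Atoh8* were 0.65 for *Id3*, 0.41 for *Smad7* and -0.21 for *Id1*, and *Id1* with *Id3* was at 0.24, so that the close relations of *Id1* were not seen there. *Id4* was at 0.74 with *Bambi* and -0.88 with *Smad6* in these 6. These values describe libraries that differ in genotype, depth and tissue composition, and no p-value is given for them. Among all tested genes, those most like *Id1* were *Gm42515* (r = 0.97), *Trim25* (0.97) and *Pknox1* (0.96), and those most like *Id2* were *Nav3* (0.96), *Rab11fip3* (0.96) and *Shkbp1* (0.96). Those most like *Id3* were *Usp43* (0.97), *Cdc42ep1* (0.96) and *Efhd2* (0.96). *Smad6* was nearest to *Ptprs* (0.96), *Creld2* (0.95) and *Car3* (0.93), and *Smad7* to *Snx8* (0.96), *Tbx3* (0.95) and *Ptger4* (0.95).

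The targets were also set beside 15 markers of endothelial cells. The sum of 15 endothelial markers was 30964, 29418, 26360, 43738 and 26647 normalized counts in WT 1 to 5 and 35962, 29906, 35746, 77923 and 41187 in *Mgp*-KO 1 to 5. It was highest in *Mgp*-KO 4, the library with the highest *Id1*, *Id2*, *Id3* and *Atoh8*. Among replicates 1 to 3 the sum was highest in *Mgp*-KO 1, as was *Atoh8*, but not *Id1*, *Id2* or *Id3*. There *Id1* was highest in WT 3, the library with the lowest sum. Of the 15 markers, all detected in every library, 14 had a log2 fold change above 0 and limma called none over all libraries, with a median of 0.43, and *Pecam1* (0.41 ± 0.23, adjusted p = 0.583) and *Cdh5* (0.32 ± 0.21, adjusted p = 0.627) are examples. Per 1000 endothelial marker counts, a scale chosen after the data were seen, *Smad6* was at 7.74 to 11.4 in WT 1 to 3 and 3.42 to 4.32 in *Mgp*-KO 1 to 3, and at 2.92 in both WT 4 and 5 against 1.56 and 2.65 in *Mgp*-KO 4 and 5. On this scale *Smad6* was lower without overlap in each set, but so were 28.7% of tested genes in the first set and 36.3% in the second, the endothelial sum itself being larger on average in *Mgp*-KO. *Smad7* was also lower without overlap in replicates 1 to 3 (ratio of means 0.765).

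Scaled in the same way, *Id1* was at 33.1 to 62.1 in WT and 29.6 to 51.6 in *Mgp*-KO, and its highest *Mgp*-KO library was no longer *Mgp*-KO 4. *Id4* was at 0.972 to 1.63 per 1000 endothelial marker counts in WT and 3.15 to 3.79 in *Mgp*-KO 1 to 3, but at 0.976 and 1.57 in *Mgp*-KO 4 and 5, inside the range of WT. *Id4* was thus higher without overlap in replicates 1 to 3, as were 4.33% of tested genes. *Bambi* likewise overlapped on this scale, with 0.938 to 1.62 in WT and 0.852 to 2.76 in *Mgp*-KO. The part of endothelial content in these differences was not tested.

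**Figure D3:**
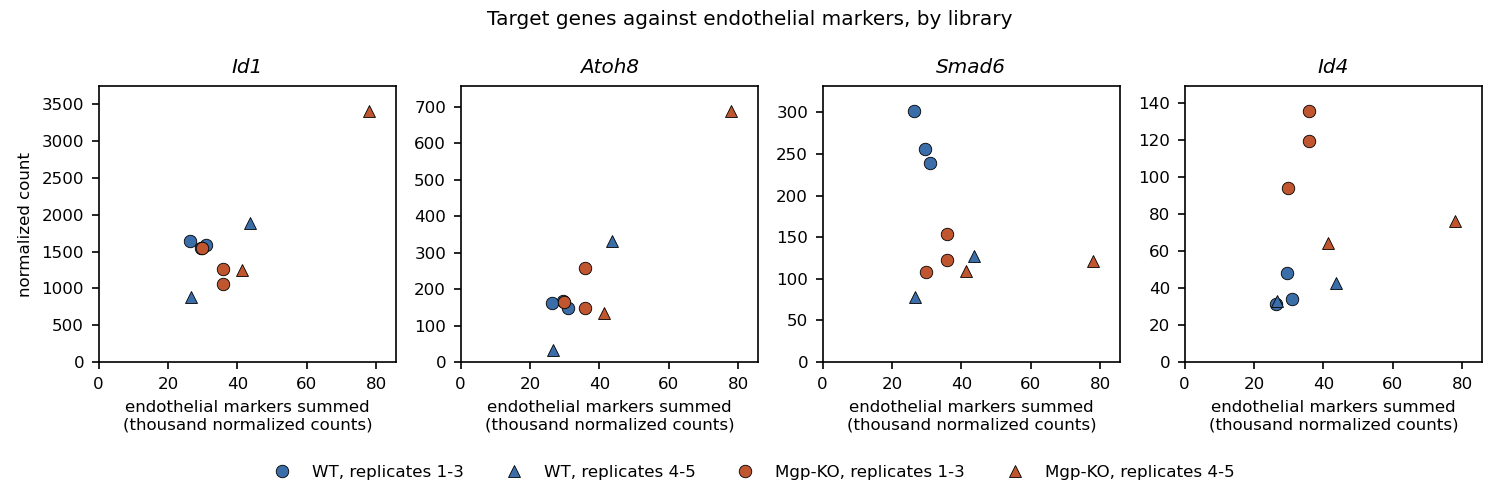
Normalized counts (y axis, from 0) of *Id1*, *Atoh8*, *Smad6* and *Id4* against the sum of 15 endothelial markers (x axis, from 0, in units of 1000 normalized counts), 1 point per library. *Mgp*-KO 4, at 77923 endothelial counts, is the rightmost point and the highest for *Id1* (3404) and *Atoh8* (688), while *Smad6* in WT 1 to 3 lies above every other library.

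No ligand, the start of the pathway, passed the main test. Of 15 ligands, which were BMPs, GDFs and the activin subunit gene *Inhba*, 8 were expressed enough to be tested. Of these 6 had a log2 fold change above 0 and edgeR, like limma, called none. *Bmp4*, a ligand that MGP binds, was at 15.0, 4.49, 12.5, 7.33 and 10.4 normalized counts in WT 1 to 5 and at 17.3, 34.4, 23.8, 25.9 and 34.0 in *Mgp*-KO 1 to 5. Every *Mgp*-KO library was above every WT library, as were 1.39% of tested genes. These levels were low, with floors of 3 reads at 2.15 to 5.19 normalized counts. The log2 fold change was 1.41 ± 0.39, with an adjusted p of 0.203 by limma, 0.0738 with the set term and 0.0428 by DESeq2. It was 1.25 in replicates 1 to 3, 1.66 in replicates 4 and 5, and 0.90 over all libraries with a pseudocount of 10. *Bmp6*, at 301 to 514 in WT and 443 to 646 in *Mgp*-KO, had the higher level and a log2 fold change of 0.33 ± 0.20 with an adjusted p of 0.605 (0.25 and 0.44 in the 2 sets). *Bmp2* was at 22.0 to 43.3 in WT and 21.0 to 37.5 in *Mgp*-KO. *Bmp7*, a ligand known for brown adipogenesis, was at 0 to 11.8 in WT and 0 to 5.86 in *Mgp*-KO and was too low to be tested.

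Among 12 tested receptors and SMAD mediators 9 had a log2 fold change above 0, and limma, edgeR and DESeq2 called none over all libraries without a further term. *Smad1* was at 325, 344, 279, 484 and 260 normalized counts in WT 1 to 5 and at 482, 604, 388, 1358 and 415 in *Mgp*-KO 1 to 5. *Smad1* was higher in *Mgp*-KO without overlap in replicates 1 to 3, as were 15.5% of tested genes, and *Mgp*-KO 4 was the highest library. Its log2 fold change was 0.80 ± 0.33 with an adjusted p of 0.414 by limma, and it was 0.62 and 1.08 in the 2 sets. Within replicates 1 to 3 DESeq2 called it, with an adjusted p of 0.0385, and limma did not (0.113). *Smad5* had a log2 fold change of 0.25 ± 0.16 with an adjusted p of 0.624, and it was 0.26 and 0.25 in the 2 sets. *Bmpr2*, a type II BMP receptor, was at 984 to 1616 in WT and 1169 to 1912 in *Mgp*-KO. The endothelial receptor *Acvrl1* (ALK1) was at 321 to 532 and 260 to 1098, and its coreceptor *Eng* at 1509 to 2064 and 1212 to 3085.

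Of 12 tested BMP antagonists 8 had a log2 fold change below 0, with a median of -0.25 by limma (-0.20 in replicates 1 to 3 and 0.01 in replicates 4 and 5), -0.10 by edgeR and -0.09 by DESeq2. *Mgp* is itself among the 12 and among the 8, and its fall follows from the design, so these medians are not of the other antagonists alone. Limma with the set term called *Mgp* alone, the targeted gene, and DESeq2 with that term also called *Bmper* lower. Of 11 further BMP-SMAD response genes tested 8 were above 0, with a median of 0.36, which was 0.04 in replicates 1 to 3 (6 of 11 above 0) and 0.68 in the other set. Limma with the set term called 1, *Skil*, which encodes a SMAD corepressor and was listed here and not among the TGF-β response genes. In replicates 1 to 3 limma called *Skil* lower and *Junb*, also listed as an immediate early gene, higher. *Skil* was at 434 to 1249 normalized counts in WT and 279 to 664 in *Mgp*-KO and fell by 1.09 on the log2 scale with an SE of 0.20 and an adjusted p of 0.0205 with the set term. Without that term its adjusted p was 0.219. The 9 TGF-β response genes tested, which follow SMAD2 and SMAD3, had a median of -0.01 with 4 above 0, and limma called none over all libraries, with or without the set term. *Pmepa1*, named after its calls were seen, was called lower by limma in replicates 1 to 3 and by DESeq2 with the set term, and DESeq2 called 3 of the 9 in replicates 1 to 3, 1 higher and 2 lower.

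The E proteins, which ID proteins capture, also stood without a call by limma, with 7 of 10 binding partners and bHLH factors above 0 and a median of 0.12. *Tcf4* was at 1081 to 5356 normalized counts in WT and 1908 to 14350 in *Mgp*-KO, and its log2 fold change was 0.68 ± 0.57 (adjusted p = 0.723). *Tcf3* was at 292 to 651 and 322 to 643, and *Tcf12* at 760 to 1395 and 861 to 1556, so that their ranges largely coincided.

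Immediate early genes respond within minutes to handling and growth factors. In replicates 1 to 3, 13 of the 18 tested had a log2 fold change above 0 and 5 below. The sum of the 18 genes with a value was 13093 to 15218 normalized counts in WT 1 to 3 and 24361 to 27132 in *Mgp*-KO 1 to 3, and 17275 and 11366 in WT 4 and 5 against 25342 and 7507 in *Mgp*-KO 4 and 5. In replicates 1 to 3 limma called 7 higher and 1 lower, where 1.9% and 1.65% of tested genes were called. Among the higher were *Fos* (2.98 ± 0.18, adjusted p = 0.00142), *Egr1* (2.56 ± 0.19, adjusted p = 0.00313) and *Junb* (1.57 ± 0.23, adjusted p = 0.0192). Over all libraries limma called none, and with the set term it called *Btg2* (1.34 ± 0.31, adjusted p = 0.0481) and *Myc* (1.11 ± 0.22, adjusted p = 0.0259). The libraries with these higher sums include those with the highest *Id4* and with *Smad6* below WT, and the part of this response in them was not tested.

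Of 13 brown adipocyte markers 12 had a log2 fold change below 0, and their sum was 242773 to 431024 normalized counts in WT and 171174 to 318341 in *Mgp*-KO. With the set term limma called 3 lower, the uncoupling protein gene *Ucp1* (-2.70 ± 0.40, adjusted p = 0.0127), the deiodinase gene *Dio2* (-3.35 ± 0.63, adjusted p = 0.0228) and the fatty acid elongase gene *Elovl3* (-3.64 ± 0.51, adjusted p = 0.0104). Of 12 adipose progenitor markers 8 were below 0, with a median of -0.38 (-0.41 in replicates 1 to 3 and -0.36 in replicates 4 and 5). Limma called none of them and none of the 11 smooth muscle and pericyte or 11 myeloid markers over all libraries, with medians of 0.13 and 0.11 for the latter lists. Skeletal muscle markers summed to between 50.9 and 42235 normalized counts and varied within the groups, being highest in *Mgp*-KO 2 and 5 and at 57.3 and 50.9 in *Mgp*-KO 1 and 3. Erythroid genes summed to 3009 to 26397 in 9 libraries and to 101447 in *Mgp*-KO 4, and 5 of 6 Schwann and nerve markers were below 0 (median -0.44, none called by limma over all libraries). Over all libraries, without a set term or block, edgeR called no gene of these lists, and DESeq2 called 1 ligand (*Bmp4*), 4 immediate early genes, 2 brown adipocyte markers (*Ucp1* and *Elovl3*) and 1 progenitor marker, which was lower.

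**Figure D4:**
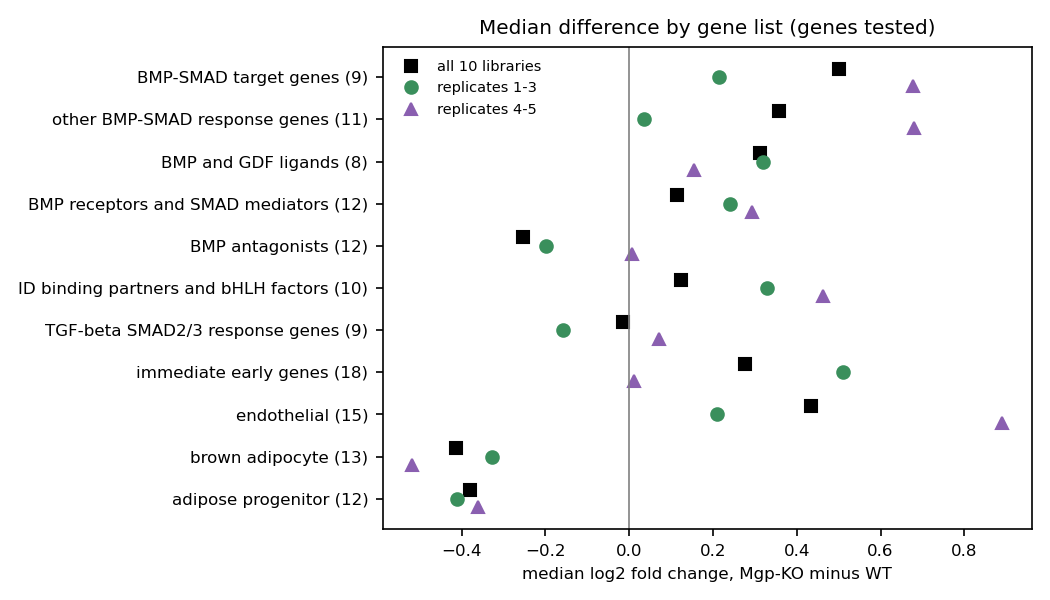
Median log2 fold change, *Mgp*-KO minus WT (x axis), of the BMP-SMAD target genes and of 10 other gene lists (number of tested genes in brackets), over all 10 libraries (squares), replicates 1 to 3 (circles) and replicates 4 and 5 (triangles). The medians of the targets and of the endothelial markers are above 0 in each of the 3 and highest in replicates 4 and 5 (0.68 and 0.89), and those of the brown adipocyte markers are below 0 in each.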

How the data were processed

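Total RNA from iBAT of 5 WT and 5 *Mgp*-KO mice was sequenced. The authors mapped single reads to mm10 with STAR, counted them per gene and divided each library by its DESeq2 size factor, and the deposited signal, normalized counts, is used here. All values (100%) were whole multiples of 1 read within 0.002 reads, so reads were recovered. The main test was limma 3.58.1 (R 4.3.3; eBayes, trend on) of log2(normalized count + 1) in the 13714 genes averaging at least 10, without a block, adjusted by Benjamini-Hochberg over all of them at 0.05. Alternatives included edgeR 4.0.16 and DESeq2 1.42.0 on recovered reads, a set term, a replicate block and left-out libraries. The fits were tested on simulated data. The members were named as known targets, and members, gene lists and tests were all chosen with earlier results of these data known. Named were all members, list genes called in the main fit or with the set term, 18 list genes fixed by name, and the 3 genes most like each of 5 members. Positions and exon lengths come from GENCODE vM21, and promoters from RefSeq (GRCm38.p6). The methods name pairs of mice, and p-values measure the spread between these mice. Floors of 3 reads (2.15 to 5.19 normalized counts) cover counting error only.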

Additional observations from a re-analysis of the deposited data

Results flagged for a closer look

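In 18 groups of 5 libraries, 2 had a library far from the others by Dixon's test on the normalized counts, both of them *Mgp*-KO 4, and chance gives about 1 in 20 such groups. *Id1* was at 3404 normalized counts in *Mgp*-KO 4, where the gap to the next library was 0.793 of the range of the group. *Atoh8* was at 688 normalized counts in the same library, with a gap of 0.777 of the range. On the log2 scale of the other tests these gaps were 0.677 and 0.603, both under the critical value, and *Id1* in WT 5 had 0.740, which is over it. *Mgp*-KO 4 also had the fewest reads (9253793), the highest share of mitochondrial ribosomal RNA (16.7%), 500 normalized counts of *Mgp*, the highest endothelial sum (77923) and the highest erythroid sum (101447), and the part of each in these values was not tested. Without *Mgp*-KO 4 the log2 fold change of *Id1* was -0.21.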

How the results depend on the processing

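*Id4* kept its direction in all 33 alternatives and was called in 14, with log2 fold changes of 0.89 to 1.77 and adjusted p from 2.16e-06 to 0.679. *Id3*, *Bambi* and *Atoh8* kept theirs in 33 of 33 and *Smad9* in 32 of 32 (it is left out at a mean of at least 50), with no call. *Smad6* was called in 3. Limma called 9 genes and no target in the main test, and 29 genes with a pseudocount of 10, 1 without a filter, 15 at a mean of at least 50 and 34 after quantile normalization, each with 0 targets called. It called 324 genes with the set term, 267 with *Mgp*-KO 4 and 5 left out, 486 in replicates 1 to 3 and 0 in replicates 4 and 5 (855 at an unadjusted p under 0.05), with 1, 1, 2 and 0 targets called. The fit without *Mgp*-KO 4 and 5 kept WT 4 and 5 and had no set term, so genotype and set are partly confounded in it. edgeR called 3 genes and 0 targets, and 341 and 1 with the set term. DESeq2 called 374 and 1, and 1152 and 1 with the set term. With a library left out in turn, 0 to 93 genes and 0 to 1 targets were called. Fewest (0) came without WT 2, 3 or 5 or *Mgp*-KO 1 or 3, against 34 without WT 4, 5 without *Mgp*-KO 5 and 93 without *Mgp*-KO 4, where *Id4* was called.

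Chosen after the data were seen, the set term called 62 genes and 1 target without WT 2 and 678 and 1 without *Mgp*-KO 4. Within replicates 1 to 3, limma called 26 genes and 0 targets without WT 2, edgeR 448 and 2, and DESeq2 1348 and 2. The cause of these shifts was not tested, and fewer libraries enter the fits that leave some out.

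*Id1* was below 0 in replicates 1 to 3 (-0.32 by limma, -0.32 by edgeR, -0.31 by DESeq2, -0.34 without WT 2), with *Mgp*-KO 4 and 5 left out (-0.20) and without *Mgp*-KO 4 under the set term (-0.24), and ran from -0.21 to 0.21 with a library left out in turn. *Id2* was at -0.48, -0.46, -0.45, -0.41, -0.46 and -0.10 in the same order and ran from -0.17 to 0.50. *Smad6* (0.20), *Smad7* (0.13) and *Fos* (-0.02) changed sign in replicates 4 and 5, *Tcf4* (-0.14) with *Mgp*-KO 4 and 5 left out, and *Smad7* ran from -0.26 to 0.16 with a library left out in turn.

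The replicate number as a block called 270 genes and 1 target in limma (*Id4*, adjusted p = 0.0404), 222 and 1 in edgeR, and 921 and 1 in DESeq2. Among the other lists, DESeq2 with the block called *Smad1* (adjusted p = 0.00419; 0.0559 in limma), *Tcf15* of the ID partners, *Pmepa1* of the TGF-β response genes, *Junb* and *Skil* of the further response genes, *Mgp*, 5 immediate early genes, 4 endothelial markers, 4 brown adipocyte markers, the progenitor markers *Dcn* and *Col3a1* (1 higher and 1 lower) and the pericyte marker *Cspg4*. Limma with the block called *Skil*, 2 immediate early genes, 1 endothelial marker (*Esam*) and 3 brown adipocyte markers. The methods speak of pairs without saying what they share. Deviations from group means correlated at 0.527, 0.0559, 0.327, 0.523 and 0.514 for numbers 1 to 5, that of number 2 being under 0.1, and at a mean of 0.390 for the same number against 0.416 for other numbers of the same set. The numbers were therefore not taken as pairs. In all, 5 of 10 libraries correlated best with their own number. After the set means were removed the mean correlation was -0.022. *Smad9* rested on 1 to 13 reads in replicates 4 and 5 and was not called in the deeper replicates 1 to 3 either.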
